A study of Mus musculus with 137 samples.

Results

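Amino acid and peptide transporters of the solute carrier families Slc1, Slc3, Slc6, Slc7, Slc15, Slc36, Slc38 and Slc43 were followed in the duodenum of mice that drank hexavalent chromium, Cr(VI). Members were the genes whose symbol carries one of these family numbers followed by the letter a and a member number, with 1 gene left out, and each was represented by its probe with the most counts in total. They came to 65 of the 21450 genes measured. The symbols alone chose them. Of the 65, 59 passed the filter on low counts and were tested, and 6 (Slc6a21, Slc7a14, Slc6a11, Slc38a4, Slc6a2 and Slc6a3) did not, with 28 to 110 counts in total over all libraries. By family, 7 of 7 Slc1, 2 of 2 Slc3, 15 of 19 Slc6, 13 of 14 Slc7, 5 of 5 Slc15, 4 of 4 Slc36, 10 of 11 Slc38 and 3 of 3 Slc43 genes were tested.

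Female wildtype B6C3F1 mice received sodium dichromate dihydrate in drinking water at 0, 0.1, 1.4, 5, 20, 60 or 180 ppm Cr(VI), and the duodenum was taken on study day 8 or 91. Crypts and villi were scraped separately from fixed sections of the same animals, and the RNA was measured with TempO-Seq, an assay in which pairs of detector oligos are ligated on the transcript and counted by sequencing. The libraries, 71 of crypt and 66 of villus from 71 mice, formed 28 groups of compartment, dose and day with 5 mice each, apart from 6 in crypts at 0.1 ppm on day 8 and 4 in villi at 5, 20 and 180 ppm on day 8 and in untreated villi on day 91. Library totals ranged from 1463938 to 7199801 counts with a median of 3592983. The crypt and villus libraries are scrapings, so each holds every cell type at that level of the tissue, and fewer cells of a type cannot be told apart from less RNA per cell. The age of the mice was not given in the sources used here.

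Dietary protein reaches the enterocyte as free amino acids and short peptides. Transporters of the brush border, the microvillar membrane facing the lumen, take them up with sodium or protons, and a second set in the basolateral membrane releases them to the blood. Several of these proteins work as pairs: Slc3a1 and Slc3a2 are heavy chains that bring light chains of the Slc7 family to the surface. Other members supply amino acids to dividing cells, empty lysosomes, move osmolytes and creatine, or clear neurotransmitters.

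Markers in a pair of untreated day 8 libraries went against their labels. In the villus library of mouse 48 the 8 crypt markers summed to 11874 CPM (counts per 1000000 of the library's size after TMM scaling) and the 8 villus enterocyte markers to 36796 CPM, the lowest enterocyte sum of the untreated day 8 villi. In the crypt library of mouse 49 the sums were 1516 and 53886 CPM, the highest enterocyte sum of the untreated day 8 crypts. Day 8 results were therefore also computed without both libraries. For genes that go with the enterocyte markers, leaving this pair out tends by construction to shrink a fall in crypts and widen one in villi. Day 8 values without the pair are therefore no separate test of a dose effect. Untreated day 91 villi were shallower, with totals of 1667014 to 2678299 counts and 13091 to 15835 probes detected, against 15157 to 18947 probes at 180 ppm. The median log2 fold change over all genes tested was there 0.54, 0.42, 0.31 and 0.17 at 5, 20, 60 and 180 ppm, and 0.37, 0.08, 0.00 and 0.00 with the size factors of DESeq2 in place of TMM.

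A stretch of 250 bases before a RefSeq transcription start (GRCm38.p6) is printed for 5 members. Slc15a1, Slc6a19 and Slc7a15 were the members whose level went down with dose in each compartment at each time. Slc36a1 and Slc7a7 are shown because a motif was found in them. Capitals mark a motif. The first 3 sequences held none, the Slc36a1 stretch (plus strand, chr11:55204090-55204339) held an E-box, CACGTG, 31 bases before the start, and the Slc7a7 stretch (minus strand, chr14:54417945-54418194) held the amino acid response element core, TGATGNAA, 141 bases before it. Slc15a1 lies on the minus strand at chr14:121505255-121505504, Slc6a19 on the minus strand at chr13:73692637-73692886 and Slc7a15 on the minus strand at chr12:8599067-8599316. The Slc6a19 stretch lies inside the span of the gene, chr13:73679745-73704865, so it does not show the bases before the outermost start.
Slc15a1: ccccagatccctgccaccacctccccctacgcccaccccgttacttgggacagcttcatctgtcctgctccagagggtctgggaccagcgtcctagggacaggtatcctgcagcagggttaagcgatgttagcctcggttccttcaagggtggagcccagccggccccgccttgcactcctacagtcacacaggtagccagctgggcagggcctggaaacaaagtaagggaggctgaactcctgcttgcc
Slc6a19: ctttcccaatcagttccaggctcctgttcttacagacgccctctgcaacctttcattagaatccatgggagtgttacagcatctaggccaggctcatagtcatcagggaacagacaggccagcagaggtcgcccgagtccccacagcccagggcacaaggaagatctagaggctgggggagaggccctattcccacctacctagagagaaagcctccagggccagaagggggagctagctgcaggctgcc
Slc7a15: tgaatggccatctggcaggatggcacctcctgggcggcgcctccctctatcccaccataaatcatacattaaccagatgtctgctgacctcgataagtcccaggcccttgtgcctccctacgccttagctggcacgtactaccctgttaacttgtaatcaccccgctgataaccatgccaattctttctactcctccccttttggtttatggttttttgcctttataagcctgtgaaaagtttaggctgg
Slc36a1: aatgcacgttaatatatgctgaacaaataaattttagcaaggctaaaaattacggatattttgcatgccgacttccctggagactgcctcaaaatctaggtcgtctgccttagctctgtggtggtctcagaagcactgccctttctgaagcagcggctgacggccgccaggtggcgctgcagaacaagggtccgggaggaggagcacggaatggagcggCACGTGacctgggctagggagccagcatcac
Slc7a7: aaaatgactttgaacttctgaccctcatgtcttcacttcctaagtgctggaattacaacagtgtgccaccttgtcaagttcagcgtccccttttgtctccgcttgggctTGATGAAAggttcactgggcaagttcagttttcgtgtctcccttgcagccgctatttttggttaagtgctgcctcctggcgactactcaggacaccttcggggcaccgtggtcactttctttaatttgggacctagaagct

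Each motif was searched on both strands. Over all 32851 RefSeq promoters of this length, 3.45% held TGATGNAA, 6.02% held CACGTG and 0.0609% held a full palindromic form of the Hnf1 motif. Of the 67 promoters found for 46 members, 3, 9 and 0 held the motifs in that order. The E-box, the site of basic helix-loop-helix factors, also stood before Slc1a7 and Slc38a7, 60 and 34 bases from the start. A match in these letters is a description of the stretch.

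In untreated mice several transporters of the brush border stood higher in villi than in crypts. On day 91 Slc6a19, the sodium-driven carrier of neutral amino acids, measured 181, 317, 191, 161 and 231 CPM in the 5 crypt libraries and 859, 871, 595 and 427 CPM in the 4 villus libraries, with no overlap. Slc15a1, the proton-driven carrier of di- and tripeptides, measured 58.6 to 118 CPM in crypts and 128 to 282 CPM in villi, again with no overlap. The fitted log2 difference, crypt minus villus, was -1.67 ± 0.31 (SE) for Slc6a19, -1.43 ± 0.40 for Slc15a1, -1.60 ± 0.40 for Slc7a9 and -1.46 ± 0.49 for Slc3a1, the light and heavy chain of the cystine and dibasic amino acid carrier. Their edgeR adjusted p-values were 8.2e-05, 0.011, 0.0049 and 0.048. Slc6a8, the creatine carrier, was also lower in crypts, by 1.44 ± 0.27 on the log2 scale (adjusted p = 9.9e-05).

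On day 91, 7 of the 59 transporters tested differed between the untreated compartments, 2 higher and 5 lower in crypts, and 11.7% of all genes tested did so (7.95% higher and 3.76% lower). The 5 lower are those just named. Leaving out the crypt library of mouse 7, or the villus library of mouse 3 or 5, left 4 called. Slc36a4, a lysosomal carrier, and Slc1a2, a glutamate carrier, were the 2 higher, at means of 6.35 ± 4.43 and 4.62 ± 4.51 CPM in crypts (SD, n = 5) and of 0.574 ± 1.15 and 0 CPM in villi (n = 4), and neither passed the filter of the fit with the mouse as a block. On day 8, Slc6a8 and Slc6a19 were called lower in crypts (-0.95 ± 0.26 and -1.07 ± 0.30, adjusted p = 0.081 and 0.088) against 0.726% of all genes (0.221% higher and 0.505% lower), and leaving out any 1 of 7 of these 10 libraries left 0 called. Without the library pair described above, 7 transporters were called: Slc6a19 at -1.79 ± 0.31, Slc6a8 at -1.53 ± 0.27, Slc7a15 at -1.40 ± 0.49, Slc15a1 at -1.26 ± 0.41 and Slc43a2 at -1.05 ± 0.35 were lower in crypts, and Slc38a1 and Slc1a1 were higher by 1.68 ± 0.59 and 2.05 ± 0.61. The pair was singled out by its crypt and enterocyte markers, so leaving it out tends to widen this contrast by construction. These 7 calls are therefore no separate test of the difference between compartments. The share of all genes called in this fit is not given here.

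**Figure D1:**
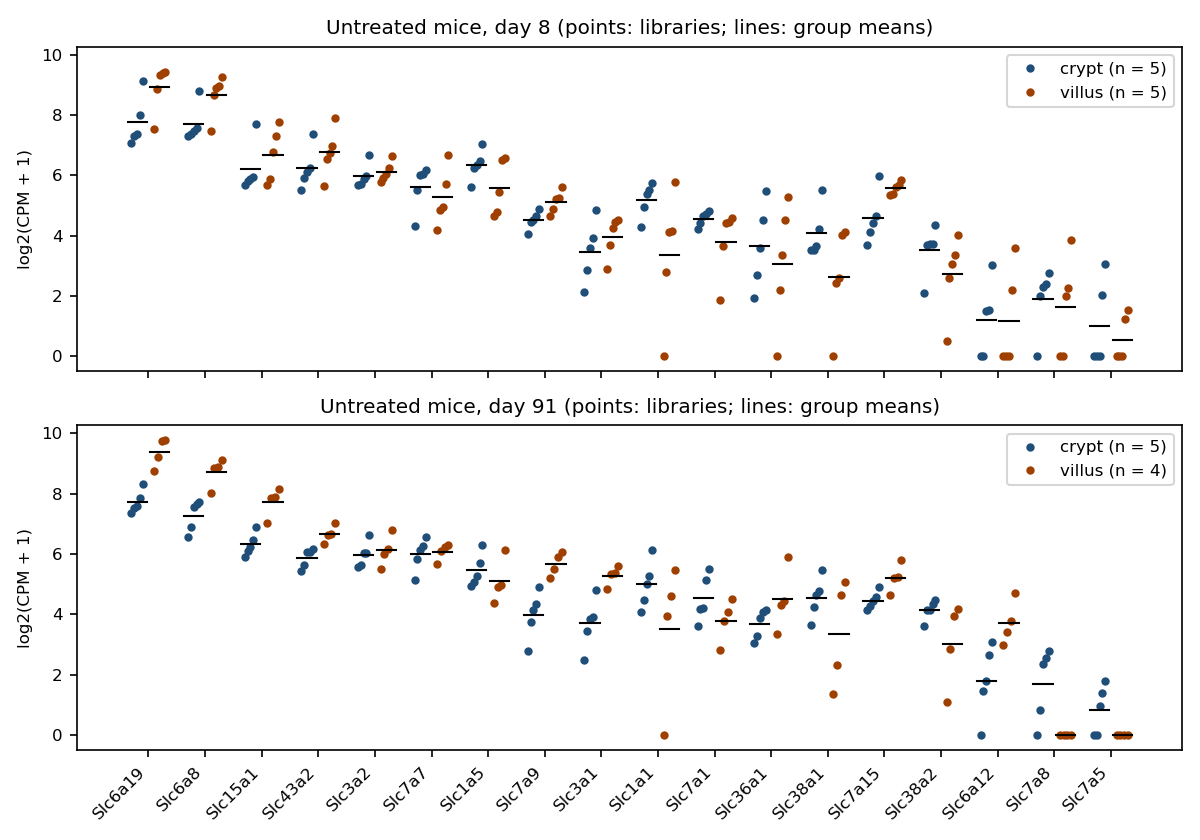
Level of 18 transporters, as log2(CPM + 1), in untreated crypt libraries (blue) and villus libraries (brown) on day 8 (top) and day 91 (bottom). Points are libraries and lines are group means of the plotted values. On day 91 the crypt and villus points of Slc6a19, Slc15a1 and Slc7a9 do not overlap, while on day 8 the crypt and villus points of Slc6a19, Slc6a8 and Slc15a1 overlap and the crypt library of mouse 49 stands highest among the crypts for all 3. Heights of different genes cannot be compared, since each has its own probe.

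Exposure was followed as 6 dose contrasts and 1 dose trend, the log2 change per dose step, in each compartment at each time. The contrasts of a set share its untreated mice. At 0.1 ppm no transporter was called in any of the 4 sets, nor at 1.4 or 5 ppm in crypts at either time, at 5 ppm in villi on day 8 or at 1.4 ppm in villi on day 91. Among all genes edgeR called 0.0158%, 0.00526% and 0.0158% at 0.1, 1.4 and 5 ppm in day 8 crypts, 0%, 0% and 0.00526% in day 91 crypts, 0% and 0.4% at 0.1 and 5 ppm in day 8 villi, and 0.0263% and 0.0421% at 0.1 and 1.4 ppm in day 91 villi. Between 1 and 8 transporters had an unadjusted p under 0.05 there, and DESeq2 called 1 in day 8 villi at 5 ppm and 3 and 1 in day 91 villi at 0.1 and 1.4 ppm. In crypts on day 8, 1, 3 and 5 transporters were lower at 20, 60 and 180 ppm and none was higher, while 0.274%, 2.36% and 4.44% of all genes were called. Split by direction, 0.858% of all genes were higher and 1.5% lower at 60 ppm, and 1.16% higher and 3.28% lower at 180 ppm. In crypts on day 91, 0, 6 and 2 were higher and 1, 3 and 4 lower at those doses, beside 0.626%, 15.7% (11.2% higher and 4.5% lower) and 7.07% (4.34% and 2.73%) of all genes. In villi on day 8, 1 was higher and 1 lower at both 1.4 and 20 ppm, 1 higher and 5 lower at 60 ppm, and 3 lower at 180 ppm, beside 1.64%, 2.88%, 7.03% (3.03% higher and 4% lower) and 6.49% (2.82% and 3.67%). In villi on day 91, 3, 2, 5 and 4 were higher and 3, 7, 7 and 7 lower at 5, 20, 60 and 180 ppm, beside 11.9%, 15.7%, 16.6% (11.6% higher and 4.94% lower) and 14.7% (9.98% and 4.77%). Without the library pair 0, 1 and 3 transporters were called in day 8 crypts at 20, 60 and 180 ppm, and 0, 2, 4 and 3 in day 8 villi at 1.4, 20, 60 and 180 ppm. The shares of all genes above belong to the full edgeR fit. Those called by DESeq2 or without the library pair are not given here.

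The dose trend called 11 transporters in crypts on day 8 (3 up, 8 down), 14 in crypts on day 91 (8 up, 6 down), 7 in villi on day 8 (all down) and 16 in villi on day 91 (5 up, 11 down). Of all genes, 10.2%, 19.7%, 14.9% and 27.4% were called in these trends against 18.6%, 23.7%, 11.9% and 27.1% of the transporters. By direction, 4.18% of all genes went up and 6.05% down in day 8 crypts, 12% and 7.75% in day 91 crypts, and 18.8% and 8.62% in day 91 villi, and 6.42% and 8.52% in day 8 villi. The median transporter slope was -0.03, 0.02, -0.10 and 0.06, beside -0.01, 0.02, -0.05 and 0.08 over all genes. In at least 1 of the 4 trends 25 of the 59 were called, 11 of them in 1, 8 in 2, 3 (Slc43a2, Slc36a1 and Slc6a8) in 3 and 3 (Slc6a19, Slc15a1 and Slc7a15) in 4.

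**Figure D2:**
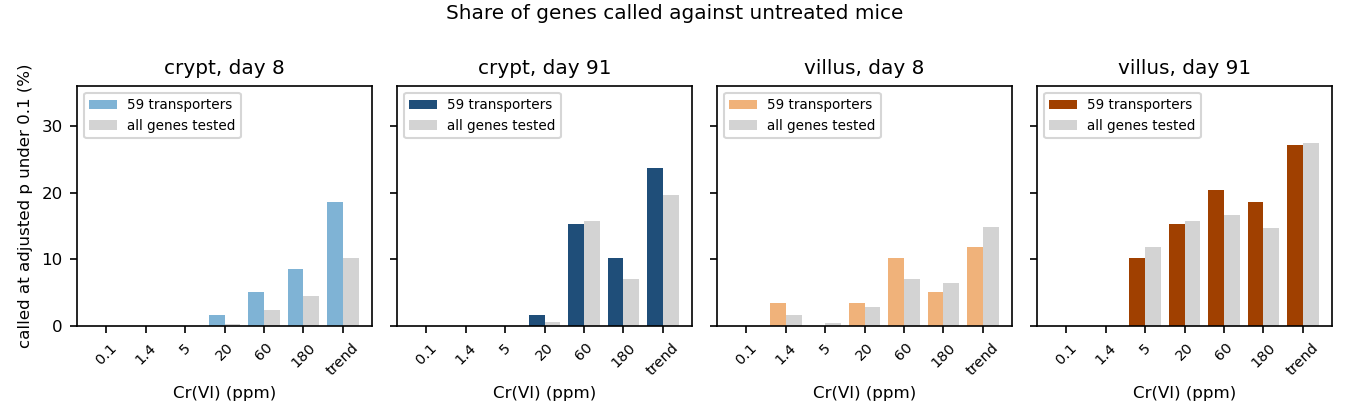
Share of genes called at an adjusted p under 0.1 against untreated mice, by dose and for the dose trend, for the 59 transporters tested (coloured bars) and all genes tested (gray bars), in the 4 sets of compartment and day. Below 5 ppm no transporter is called except in day 8 villi at 1.4 ppm, where the share is 3.39% beside 1.64% of all genes, and for the dose trend the coloured bars reach 18.6%, 23.7%, 11.9% and 27.1% beside gray bars of 10.2%, 19.7%, 14.9% and 27.4%.

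Brush-border transporters fell with dose in each set, 2 to 5 of the 7 tested, and Slc15a1 and Slc6a19 did so in all 4. On day 91, Slc15a1 in villi measured 234, 282, 232 and 128 CPM in untreated mice and 42.2, 21.4, 4.84, 21.1 and 47.6 CPM at 180 ppm. In crypts of the same day it measured 74.7, 118, 67.3, 87.2 and 58.6 CPM untreated and 15.5, 6.88, 7.73, 13.5 and 21.0 CPM at 180 ppm. In both compartments every library at 180 ppm stood below every untreated one. The log2 fold change at 180 ppm was -2.97 ± 0.43 in villi (adjusted p = 5.2e-08) and -2.64 ± 0.43 in crypts (4.3e-06).

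On day 8, Slc15a1 in crypts measured 50.6, 60.5, 54.8, 209 and 57.7 CPM untreated and 16.2, 17.5, 8.84, 14.0 and 15.6 CPM at 180 ppm, and the 209 CPM belonged to the library of mouse 49. In villi it measured 109, 58.3, 50.7, 217 and 159 CPM untreated and 23.6, 40.4, 21.6 and 23.0 CPM at 180 ppm. The groups did not overlap in either compartment. The log2 fold changes were -2.56 ± 0.44 and -2.11 ± 0.45 (adjusted p = 9.0e-06 and 0.00067), and -1.91 ± 0.43 and -2.30 ± 0.44 without the library pair. The slope of Slc15a1 was -0.41, -0.38, -0.37 and -0.42 per dose step in day 8 crypts, day 91 crypts, day 8 villi and day 91 villi, and the lowest dose called was 60 ppm in crypts at both times (180 ppm on day 8 without the library pair), 180 ppm in day 8 villi and 20 ppm in day 91 villi.

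Slc6a19 in day 91 villi measured 859, 871, 595 and 427 CPM untreated and 146, 108, 122, 193 and 126 CPM at 180 ppm, with no overlap and a log2 fold change of -2.31 ± 0.32 (adjusted p = 1.8e-08). In day 91 crypts it measured 103, 47.7, 81.6, 92.5 and 79.8 CPM at 180 ppm, below the untreated range of 161 to 317 CPM, a change of -1.41 ± 0.30 (adjusted p = 0.00087). In day 8 crypts it measured 258, 163, 158, 559 and 134 CPM untreated and 99.8, 124, 35.0, 56.1 and 58.0 CPM at 180 ppm. In these 3 sets each exposed library lay below the untreated ones. In day 8 villi the untreated library of mouse 48, at 186 CPM, lay inside the exposed values of 126, 151, 203 and 181 CPM, while the other untreated libraries measured 471 to 685 CPM. The day 8 changes were -1.77 ± 0.31 in crypts and -1.69 ± 0.33 in villi (adjusted p = 1.45e-05 and 0.000144), and -1.22 ± 0.30 and -1.90 ± 0.31 without the library pair.

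A second Slc6a19 probe fell by 2.16, 1.88 and 2.45 on the log2 scale in day 8 crypts, day 8 villi and day 91 villi, and was at -1.03 with an adjusted p of 0.30 in day 91 crypts. Slc6a19 was called from 20 ppm in villi at both times and from 60 ppm in day 8 crypts, or 180 ppm there without the library pair. In day 91 villi its group mean went from 688 ± 216 CPM untreated through 231 ± 44 at 20 ppm and 163 ± 23 at 60 ppm to 139 ± 33.1 CPM at 180 ppm.

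**Figure D3:**
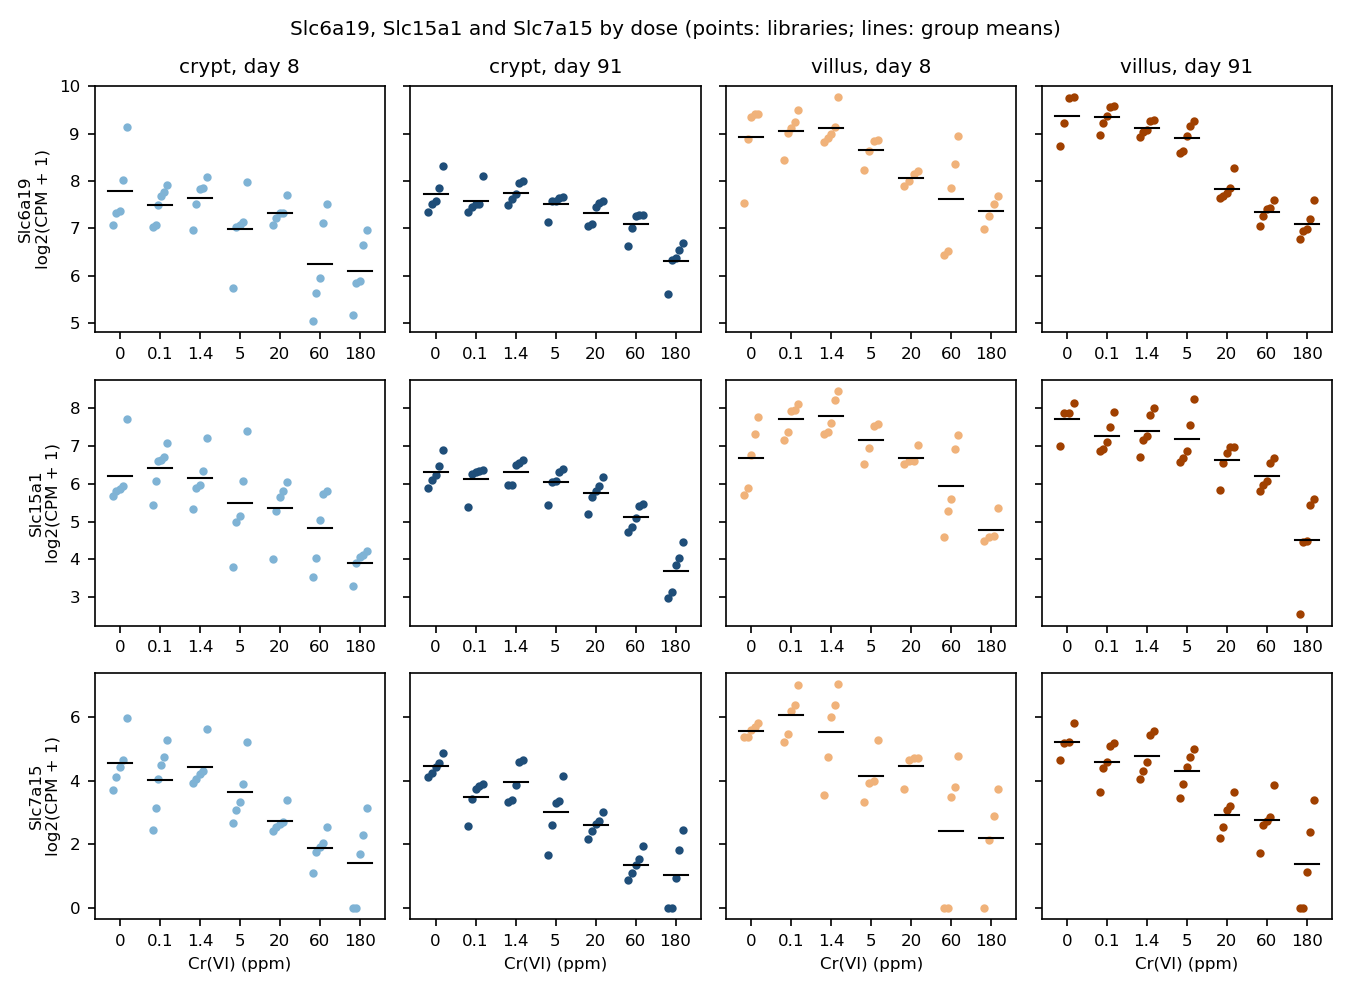
Level of Slc6a19 (top), Slc15a1 (middle) and Slc7a15 (bottom), as log2(CPM + 1), by Cr(VI) dose in each set of compartment and day. Points are libraries and lines are group means of the plotted values. The points go down toward 180 ppm in every panel, and in the day 8 crypts 1 untreated library stands above the others for all 3 genes.

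Among the remaining brush-border members, calls came in some sets and not in others. By direct test, the 180 ppm effect of no brush-border member differed between compartments or between days. Slc3a1 and its light chain Slc7a9 fell in day 91 villi, from 38.6 ± 8.18 to 6.77 ± 4.64 CPM and from 51.1 ± 13.7 to 23.8 ± 5.5 CPM at 180 ppm (SD, n = 4 and 5). The log2 fold changes were -2.41 ± 0.54 (adjusted p = 0.00056) and -1.09 ± 0.40 (0.062), and the Slc7a9 call was lost without untreated mouse 3 or mouse 6 (adjusted p = 0.19 and 0.16). Both genes were already lower at 5 ppm there, by 1.31 and 1.20 on the log2 scale. In the other 3 sets neither gene was called at 180 ppm, with values from -1.0 to -0.68 for Slc3a1 and from -0.99 to -0.10 for Slc7a9.

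Slc36a1, the proton-coupled carrier of small amino acids, went down with dose in crypts at both times and in day 91 villi, with slopes of -0.37, -0.33 and -0.27 (adjusted p = 0.0054, 0.015 and 0.029). In day 91 crypts it measured 8.73, 15.8, 7.23, 16.8 and 13.8 CPM untreated and 1.86, 4.13, 9.52, 0 and 2.12 CPM at 180 ppm, with 1 exposed library inside the untreated range. At 180 ppm alone it was not called in any set, and the day 91 villus trend was lost without untreated mouse 6, whose 58.2 CPM was the highest untreated value (adjusted p = 0.25). Slc1a1, the glutamate and aspartate carrier, was not called in any trend and was at -0.80 to 0.29 at 180 ppm. Slc6a14 was at or near 0 CPM in these groups.

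By count, 3, 3, 2 and 5 of the 7 brush-border members tested went down with dose in day 8 crypts, day 91 crypts, day 8 villi and day 91 villi, and none went up. Their median slope was -0.17, -0.20, -0.12 and -0.27. In that order, 6.05%, 7.75%, 8.52% and 8.62% of all genes went down by trend. At 180 ppm 3.28%, 2.73%, 3.67% and 4.77% of all genes were lower. Villus enterocyte markers were measured beside these transporters. Of the 8, 4 (Fabp2, Vil1, Apoa4 and Treh) were lower at 180 ppm in day 8 crypts and 2 (Apoa4 and Treh) in each of the other sets, and none was higher. By dose trend 4, 2, 3 and 3 went down, and 2 went up in day 91 villi, the fatty acid binding proteins Fabp2 and Fabp1, each with a slope of 0.20 (adjusted p = 8.5e-05 and 0.0052). Their summed level at 180 ppm ranged from 8173 to 15785 CPM in day 8 crypts (22092 to 53886 untreated), 12620 to 33579 in day 91 crypts (19540 to 39311), 23118 to 49517 in day 8 villi (36796 to 69092) and 29153 to 83538 in day 91 villi (48885 to 63892). Of 4 smooth muscle markers 0, 2, 1 and 3 were lower at 180 ppm, and 0, 4, 0 and 4 went down by trend. Of 4 T and B cell markers 2, 1, 1 and 1 went down and 0, 0, 0 and 2 up by trend, and the T cell marker Cd3e went down in every set, with slopes of -0.22, -0.41, -0.45 and -0.41. Of 9 pancreatic acinar markers, whose sum ran from 10.2 to 147180 CPM over untreated libraries, none was called. The part of these cell types in the transporter results was not tested.

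Genes that work with these transporters were taken from a list outside the families. Of its 10 peptidases, 5, 5, 4 and 5 were lower at 180 ppm in the order of sets above and none was higher, and by trend 7, 7, 5 and 6 went down and 1, Enpep, went up in day 91 villi. Among all genes 3.28%, 2.73%, 3.67% and 4.77% were lower at 180 ppm. By trend 6.05%, 7.75%, 8.52% and 8.62% of all genes went down, and 18.8% went up in day 91 villi. Ace, a peptidyl-dipeptidase of the brush border, was at -2.88, -3.10, -2.78 and -3.13, called in all 4 sets. Slc6a20a, the imino acid carrier, whose symbol falls outside the rule because of its last letter, was also called in all 4, at -2.32, -2.48, -2.37 and -2.88. Slc9a3, the sodium-proton exchanger of the brush border, fell by 2.15, 2.63 and 2.74 in day 8 crypts, day 91 crypts and day 91 villi. Of 6 genes listed as partners of brush-border carriers, Slc6a20a and Slc9a3 among them, 4, 3, 2 and 3 went down by trend. In the same order 0, 1, 0 and 1 of these partners went up, while 12% of all genes went up in day 91 crypts. Slc9a3r1, another listed partner, was higher by 1.11 in day 91 crypts at 60 ppm (edgeR adjusted p = 0.00046). Dpp4, a dipeptidyl peptidase, fell by 1.46, 1.71 and 3.24 in day 91 crypts, day 8 villi and day 91 villi, and Anpep, the aminopeptidase N gene, by 1.91 and 2.08 in crypts on day 8 and day 91.

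On the basolateral side Slc43a2, a facilitative carrier of branched-chain amino acids, phenylalanine and methionine, was the member that fell most often. In day 91 crypts it measured 42.0, 65.2, 70.1, 65.1 and 48.2 CPM untreated and 27.3, 23.8, 19.2, 17.6 and 23.7 CPM at 180 ppm. In day 91 villi it measured 129, 97.6, 99.6 and 78.4 CPM untreated and 45, 41.7, 34.9, 18.8 and 67.4 CPM at 180 ppm. Neither pair of groups overlapped, and the log2 fold changes were -1.39 ± 0.35 and -1.27 ± 0.36 (adjusted p = 0.0059 and 0.0092). In day 8 crypts the change was -1.41 ± 0.35 (adjusted p = 0.0055) and -0.96 ± 0.35 without the library pair, where the call was lost (adjusted p = 0.20), although the slope of -0.18 was still called. It was at -0.47 and not called in day 8 villi.

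Among the other basolateral members tested, only Slc7a7 also went down by trend, in crypts at both times. Slc3a2, the heavy chain shared by Slc7a6, Slc7a7 and Slc7a8, was at -0.67, -0.01, -0.13 and 0.33 at 180 ppm and was called in no trend. Slc7a7, its light chain for dibasic amino acids, went down with dose in crypts (slopes of -0.13 and -0.14, adjusted p = 0.039 and 0.017, with the first lost without the library pair at an adjusted p of 0.11) and was lower in day 91 crypts at 60 ppm and in day 91 villi at 5 ppm, by 1.21 and 1.68 on the log2 scale. In day 8 villi it was higher at 1.4 and 60 ppm, by 1.13 at both, and the 1.4 ppm call was lost without the library pair. Its other probes differed in direction. Slc7a6, a light chain with the same heavy chain, rose in day 91 crypts, from 11.2, 3.27, 5.75, 3.47 and 0 CPM untreated to 10.9, 25.7, 17.6, 26.0 and 21.0 CPM at 180 ppm. Those groups overlapped by 1 exposed library, and the log2 fold change was 2.02 ± 0.59 (adjusted p = 0.022). Slc7a8 stood at group means of 0 to 4.08 CPM at these 2 doses and was not called. Of the 5 basolateral members, 2 went down in day 8 crypts, 2 down and 1 up in day 91 crypts, none in day 8 villi and 1 down in day 91 villi. In that order, 6.05%, 7.75%, 8.52% and 8.62% of all genes went down by trend, and 12% went up in day 91 crypts. Slc16a10, a basolateral carrier of aromatic amino acids outside the families, was lower at 180 ppm in day 8 crypts and in villi at both times.

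**Figure D4:**
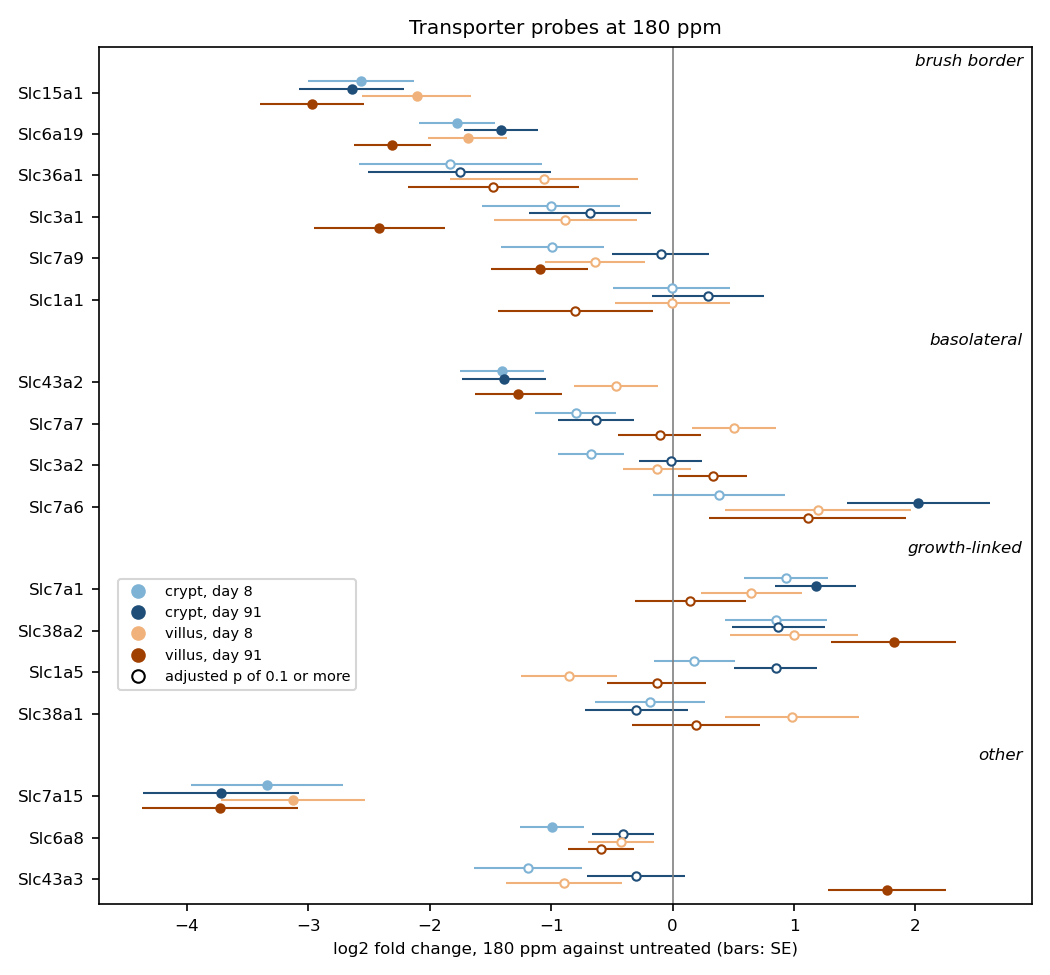
Log2 fold change at 180 ppm against untreated mice, with its SE, for 17 transporters grouped by role, in day 8 crypts (light blue), day 91 crypts (dark blue), day 8 villi (light brown) and day 91 villi (dark brown). Filled points have an adjusted p under 0.1. Slc15a1, Slc6a19 and Slc7a15 have 4 filled points left of 0, and filled points right of 0 belong to Slc7a6, Slc7a1, Slc38a2 and Slc43a3.

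Of the 8 carriers linked to growth and to the amino acid response, 3 (Slc7a1, Slc1a5 and Slc38a2) went up with dose in day 91 crypts. Slc7a1, a carrier of cationic amino acids, measured 11.2, 43.9, 17.6, 33.9 and 17 CPM in untreated day 91 crypts and 56.8, 55.0, 70.1, 45.3 and 52.6 CPM at 180 ppm. Every exposed library lay above the untreated ones. The log2 fold change was 1.18 ± 0.33 (adjusted p = 0.019), 1.0 without untreated mouse 3 (adjusted p = 0.10), and 1.17 ± 0.34 at 60 ppm. The slope was 0.16 in day 8 crypts and 0.21 in day 91 crypts (adjusted p = 0.017 and 0.00017), while in villi Slc7a1 was not called in either trend.

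Slc38a2, a sodium-coupled carrier of small neutral amino acids, rose in villi and crypts on day 91. In villi it measured 16.9, 14.2, 6.13 and 1.15 CPM untreated and 26.4, 32.6, 30.1, 31.3 and 39.2 CPM at 180 ppm, with no overlap, a change of 1.82 ± 0.51 (adjusted p = 0.0093), above the median shift of 0.17 over all genes. It was called there from 20 ppm. In crypts it went from 11.1 to 21.3 CPM untreated to 22.6 to 43.8 CPM at 180 ppm, a slope of 0.18 (adjusted p = 0.0074), and was called at 60 ppm alone among single doses (0.96, adjusted p = 0.097).

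Slc1a5, the glutamine carrier, went up with dose in day 91 crypts and down in day 8 villi. In day 91 crypts its mean was 45.8 ± 19.6 CPM untreated, 115 ± 6.6 at 60 ppm and 82.6 ± 19.9 CPM at 180 ppm, with a slope of 0.20 (adjusted p = 0.00056) and a change of 1.33 ± 0.34 at 60 ppm (adjusted p = 0.0033). In day 8 villi its slope was -0.16 (adjusted p = 0.031), lost without the library pair (-0.13, adjusted p = 0.11), with untreated libraries at 89.4, 24.1, 95.0, 26.8 and 42.5 CPM and exposed ones at 10.8, 33.8, 59.9 and 20.5 CPM at 180 ppm. The difference between these slopes was not tested. Slc38a1, another sodium-coupled carrier, was higher in day 8 villi at 20 ppm (1.74, adjusted p = 0.069) and was called in no trend. Slc7a5, Slc7a3, Slc1a4 and Slc6a9 stood at group means under 10 CPM in untreated and 180 ppm mice and were called in no trend.

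In all, 1, 3, 0 and 1 of the 8 growth-linked members went up with dose in the order of sets above, and 1 went down, in day 8 villi. Of all genes, 4.18%, 12%, 6.42% and 18.8% went up, and 8.52% went down in day 8 villi. Of 8 crypt markers, 0, 1, 0 and 1 were higher and 0, 0, 1 and 1 lower at 180 ppm, and 1, 2, 0 and 3 went up and 0, 0, 2 and 1 down by trend. Those that went up by trend were the proliferation marker Mki67 in day 8 crypts (slope 0.16), Ephb2 and the replication factor Pcna in day 91 crypts (0.22 and 0.12), and the stem cell marker Lgr5, Ephb2 and Pcna in day 91 villi (0.55, 0.40 and 0.18). Their part in the transporter results was not tested. Of 10 genes of the amino acid response, 1, 0, 1 and 2 were higher at 180 ppm in the order of sets above, while by trend 1, 4, 2 and 2 went up and 1 went down, in day 91 villi. At 180 ppm Atf4, the factor that drives this response, rose by 0.63 in day 8 villi and by 0.76 in day 91 villi, Cebpb by 0.78 in day 91 villi and the mitochondrial serine enzyme Shmt2 by 1.29 in day 8 crypts, and Trib3, an Atf4 target, fell by 1.58 in day 91 villi.

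**Figure D5:**
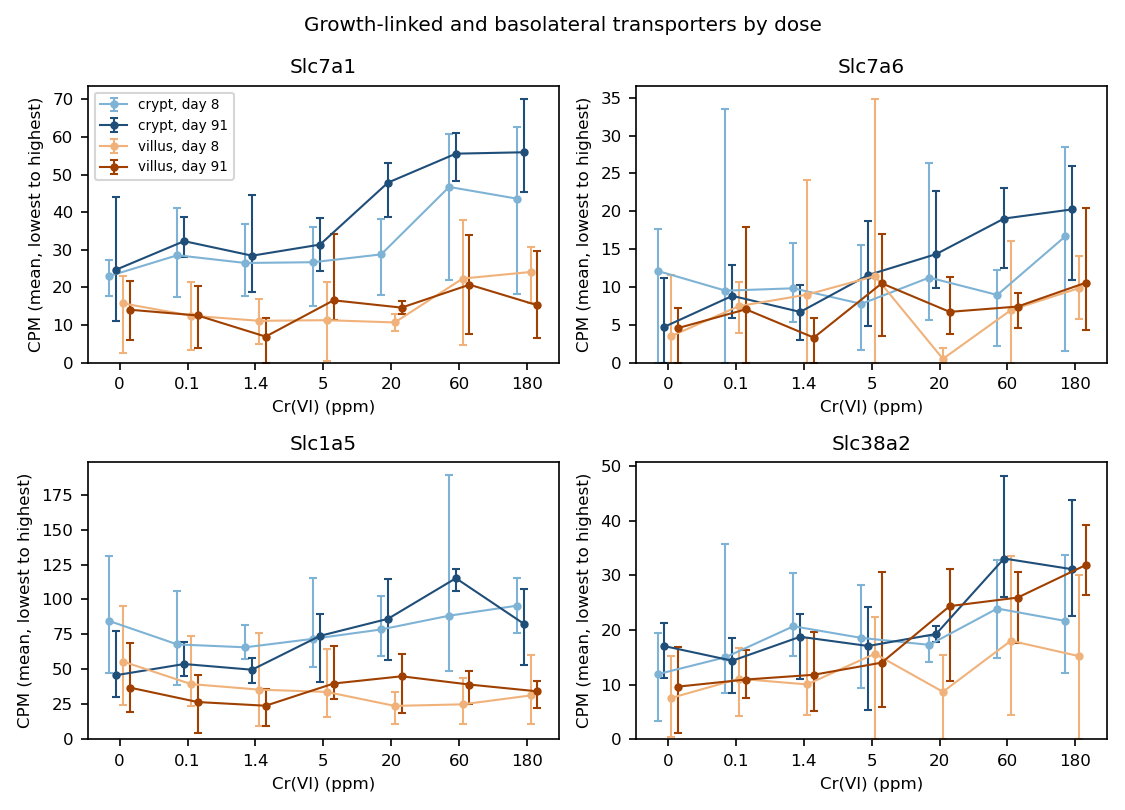
Level (CPM) of Slc7a1, Slc7a6, Slc1a5 and Slc38a2 by Cr(VI) dose in the 4 sets of compartment and day. Points are group means and bars run from the lowest to the highest library. For Slc7a1 and Slc38a2 the 180 ppm bar of day 91 crypts lies above the untreated bar, as does that of day 91 villi for Slc38a2.

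Slc7a15, a carrier with a preference for aromatic amino acids, changed most in relative terms among the members that fell in all 4 sets. In day 91 crypts it measured 28.6, 22.6, 16.5, 18.1 and 20.6 CPM untreated and 0, 0.917, 2.52, 4.44 and 0 CPM at 180 ppm. In day 91 villi it measured 35.4, 54.9, 24.1 and 36.3 CPM untreated and 1.20, 0, 0, 9.56 and 4.23 CPM at 180 ppm. On day 8 in villi it measured 50.7, 56.0, 40.2, 47.7 and 40.8 CPM untreated and 0, 6.37, 12.3 and 3.37 CPM at 180 ppm. The groups were separate in each case, and also in day 8 crypts, where untreated libraries measured 12 to 61.8 CPM and exposed ones 0 to 7.80 CPM. The log2 fold changes were -3.34 ± 0.63, -3.72 ± 0.64, -3.12 ± 0.59 and -3.73 ± 0.64 in day 8 crypts, day 91 crypts, day 8 villi and day 91 villi, with adjusted p-values of 6.3e-05, 1.7e-05, 9.1e-05 and 3.8e-06. Without the library pair the day 8 values were -2.77 ± 0.66 and -3.17 ± 0.60. Slc7a15 was called at 20 ppm in crypts at both times and in day 91 villi, although the day 8 crypt call at 20 ppm was lost without the library pair.

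Slc6a8 fell in day 8 crypts, from 177, 159, 189, 444 and 163 CPM to 157, 176, 54.6, 79.0 and 103 CPM at 180 ppm. Those groups overlapped, and the change of -0.99 ± 0.26 (adjusted p = 0.013) became -0.55 ± 0.25 without the library pair (adjusted p = 0.40) and -0.76 without exposed mouse 528 (adjusted p = 0.15). Its slopes were -0.15, -0.10 and -0.11 in day 8 crypts, day 8 villi and day 91 villi, all called. With 1 untreated or 180 ppm library left out in turn, the day 8 villus trend was lost in 4 fits and held in 5. The other Slc6a8 probes fell by 1.33 and 1.25 on the log2 scale in day 8 crypts, and both fell in day 91 villi, 1 of them by 1.52, where the probe used was at -0.59 and not called.

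Slc6a12, which carries betaine and GABA, fell to near 0 in day 91 villi. It measured 24.9, 6.86, 12.6 and 9.56 CPM untreated and 0, 0, 0, 0 and 0.282 CPM at 180 ppm, at least 15.7-fold lower against the mean level of 3 counts per library. Its group means there were 19.3 ± 9.3, 10.2 ± 5.2, 7.33 ± 7.5, 1.60 ± 1.6 and 1.34 ± 0.78 CPM at 0.1, 1.4, 5, 20 and 60 ppm, and it was called from 20 ppm. In day 8 villi 2 of 5 untreated libraries held counts (11.1 and 3.60 CPM) and none of the 4 at 180 ppm did. Its trend was called in villi at both times (adjusted p = 0.0042 and 1.3e-09) and in crypts at neither.

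Slc43a3, a nucleobase carrier, rose in day 91 villi from 11.1 ± 2.61 to 38.5 ± 19.3 CPM at 180 ppm (1.77 ± 0.49, adjusted p = 0.0075), with no overlap, and went down with dose in day 8 crypts (slope of -0.18, adjusted p = 0.039). Slc36a4 rose in the same villi from 0.574 ± 1.15 to 12.1 ± 7.42 CPM (adjusted p = 0.0041), with an untreated group that was at 0 in all but 1 library. Slc38a7, a lysosomal glutamine carrier, went down with dose there (slope of -0.14, adjusted p = 0.012). Slc38a10, named after its values were seen, was higher there by 0.60 ± 0.22 (adjusted p = 0.071), a smaller change on a probe at 191 ± 42.9 CPM untreated.

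Several called trends rested on a few counts. Slc6a18, a neutral amino acid carrier, measured 0, 0.809, 0, 0 and 0 CPM in untreated day 8 crypts and 0, 17.5, 0, 4.43 and 0.917 CPM at 180 ppm, so the groups overlapped, and its trend was called up in crypts at both times (adjusted p = 0.0073 and 0.0010). Slc6a6, the taurine carrier, went up in day 8 crypts, with means of 1.58 ± 2.22 and 6.31 ± 3.45 CPM (slope of 0.40, adjusted p = 0.021). Slc6a5, a glycine carrier, was called up in day 91 crypts and villi (adjusted p = 0.058 and 0.057) at means under 5 CPM. The glutamate carriers Slc1a2 and Slc1a7 were called up in day 91 crypts (adjusted p = 0.077 and 0.037), from 4.62 ± 4.51 to 9.44 ± 6.67 CPM and from 0 in all untreated libraries to 0.889 ± 1.48 CPM, and Slc1a3 was called down in day 8 villi (adjusted p = 0.021), from 6.23 ± 7.75 to 0.651 ± 1.30 CPM. The Slc1a7 call was lost without exposed mouse 485. When each untreated or 180 ppm library was left out in turn, the Slc1a2 call was lost in 5 fits and held in 5. The Slc6a5 call was lost in 4 fits and held in 6 in crypts, and was lost in 2 and held in 7 in villi.

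The 180 ppm effect was compared directly between compartments and between times. No transporter differed between villi and crypts at either time, where 0.00526% and 0.263% of all genes did, nor between days in crypts (0.132%). At an unadjusted p under 0.05 there were 7, 7 and 1, and DESeq2 called 0 in each. For Slc6a19 on day 91 the villus effect minus the crypt effect was -0.89 ± 0.43 (adjusted p = 0.59), and for Slc15a1 it was -0.32 ± 0.60. A call missed at this precision does not show that the effects were alike. In villi, 3 transporters differed between days, beside 1.05% of all genes: Slc43a3 at 2.66 ± 0.68 (day 91 minus day 8, adjusted p = 0.045), Slc36a4 at 4.92 ± 1.46 (0.098) and Slc1a4 (0.096), a carrier of neutral amino acids at 0 in every untreated day 8 and every exposed day 91 library of this test, with means of 3.52 and 1.82 CPM in the other groups. The median of this difference over all genes tested was itself 0.48.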

How the data were processed

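RNA from crypts and villi of fixed duodenum was measured with TempO-Seq in 71 crypt and 66 villus libraries. The authors deposited raw read counts for 30146 probes, not normalized. The submitters' processing notes name bcl2fastq 2.17.1.14 and Bowtie, and the genome build is not given in the sources used here.

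Groups were the labels' compartment, dose and day. A probe entered the test if it passed edgeR's filterByExpr (26365 probes). A gene was represented by its probe with the most counts in total, and 18998 genes were tested. Counts were normalized with TMM and fitted in a single edgeR 4.0.16 quasi-likelihood model over the 28 groups (R 4.3.3), which assumes that the groups share their spread. P-values were adjusted by the Benjamini-Hochberg method over all probes, and a gene was called at an adjusted p under 0.1, the study's threshold. Contrasts were each dose against untreated mice, a linear trend over the 7 dose groups in order, untreated crypts against villi, and differences of the 180 ppm effect. SE is derived from the log2 fold change and its F statistic. CPM is the count per 1000000 of the library's effective size, its total times the TMM factor, and it is not scaled to transcript length. Fitted fold changes carry a prior count of 0.125, so a group with at most 3 counts in every library is given as values or as a bound. At depths of 1463938 to 7199801 counts, 3 counts stand for about 1 CPM, and such bounds cover counting error only.

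Crypt and villus libraries with the same number come from the same mouse. The correlation of their deviations from the group means in untreated mice was 0.014 to 0.50 on day 8 and 0.054 to 0.20 on day 91.

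The text names every member of the brush-border, basolateral and growth-linked lists, other members called at 180 ppm or in the trend in at least 2 of the 4 sets, and, in each set, the 2 further members with the smallest p among those called in the trend. The members and lists were chosen with earlier results of these data known. The scripts were tested on simulated data. Alternatives were DESeq2 1.42.0, its size factors, thinned counts, no filter, separate fits, the mouse as a block, leaving out the library pair and leaving out each replicate. Promoter sequences were taken from RefSeq, with a promoter for 24 of 32 named members. Some items are not reported here.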

Additional observations from a re-analysis of the deposited data

Results flagged for a closer look

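Single libraries stood apart in 12 of the 62 transporter values by group that could be examined with Dixon's test. These covered 8 transporters: Slc6a19, Slc15a1, Slc43a2, Slc36a1, Slc6a8, Slc7a15, Slc6a12 and Slc6a18. The other transporters were not examined in this way. A rate of about 1 group in 20 by chance holds for normally spread values, not for groups mostly at 0 CPM. Values of 1 library for several genes are not independent, so the 12 were not judged against that rate. The library of mouse 49 among untreated day 8 crypts was the highest for Slc6a8 at 444 CPM, Slc15a1 at 209 CPM, Slc43a2 at 166 CPM and Slc7a15 at 61.8 CPM, and this is the crypt library whose markers went against its label. In day 8 villi at 180 ppm, mouse 528 stood above the other mice for Slc15a1, at 40.4 CPM. The remaining 7 concern low counts. Slc6a12 stood apart at 7.19 CPM in untreated mouse 46 and at 3.45 CPM in exposed mouse 529, both in day 8 crypts. Slc6a18 stood apart in untreated mice at 1.09 CPM (mouse 5, day 91 crypt), 7.48 CPM (mouse 3, day 91 villus), 0.809 CPM (mouse 47, day 8 crypt) and 14.5 CPM (mouse 49, day 8 villus), and at 17.5 CPM in mouse 527 in day 8 crypts at 180 ppm.

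The 180 ppm effect in villi differed between day 91 and day 8 by a test of the difference for Slc43a3 (edgeR adjusted p = 0.0452), Slc36a4 (0.0981) and Slc1a4 (0.0956). Slc1a4 was at 0 in all untreated libraries on day 8 and in all exposed libraries on day 91, and its means in the other groups were 3.52 and 1.82 CPM.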

How the results depend on the processing

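No called value of a named transporter changed sign under the alternatives run: the size factors of DESeq2 in edgeR, DESeq2 itself, no filter, separate fits, counts thinned to the smallest total, leaving out the pair of day 8 libraries, the mouse as a block and leaving out each replicate. Depth limits the members at a few counts, where 3 counts stand for about 1 CPM. The single model over all groups sets the spread that each comparison uses, and the largest moves in the number of transporters called came from giving it up. The causes of the moves below were not tested. The share of all genes called is not given here for any of these fits, so no count below is a result about the transporters alone.

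Fitting each set of libraries on its own called 3, 7, 18 and 13 transporters in day 91 crypts at 5, 20, 60 and 180 ppm and 23 in the trend, 0 in day 8 crypts at 20 ppm, 0, 0 and 3 in day 8 villi at 1.4, 20 and 60 ppm, and 0 between untreated compartments on day 8. DESeq2 called 2 in day 91 crypts at 20 ppm, 1, 6 and 6 in day 8 villi at 5, 20 and 180 ppm and 11 in their trend, and 3 and 1 in day 91 villi at 0.1 and 1.4 ppm. Thinned counts gave 8 in day 8 crypts at 180 ppm, 1, 5 and 5 in day 8 villi at 5, 20 and 180 ppm, and 1 for the difference between villi and crypts on day 91. Without a filter 1 was called in day 8 villi at 20 ppm. Without the library pair 0, 1 and 3 were called in day 8 crypts at 20, 60 and 180 ppm, 0 in day 8 villi at 1.4 ppm and 7 between untreated compartments on day 8. The difference between days in villi was called for 1 transporter in each of 3 settings: without the filter, with the size factors of DESeq2 and without the library pair.

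Leaving out each untreated or 180 ppm replicate in turn gave 3 to 8 and 9 to 13 transporters in day 8 crypts (180 ppm and trend), 5 to 7 and 12 to 15 in day 91 crypts, 3 to 6 and 6 to 10 in day 8 villi, and 9 to 12 and 13 to 17 in day 91 villi, and 0 to 3 and 4 to 8 between untreated compartments on day 8 and day 91. Leaving out a single library moved 4 of these counts by over 1.5 times. In day 8 crypts at 180 ppm 3 were called without untreated mouse 49 and 8 without exposed mouse 529. In day 8 villi at 180 ppm 5 were called without untreated mouse 49, exposed mouse 526 or exposed mouse 529, and 6 without untreated mouse 50. Between untreated compartments on day 8, 0 were called without the crypt library of mouse 46, 47, 48 or 50 or the villus library of mouse 46, 47 or 49, and 1 without the villus library of mouse 50. On day 91, 4 were called without the crypt library of mouse 7 or the villus library of mouse 3 or 5. Of the calls for named transporters, 684 held and 65 were lost in these fits. With the mouse as a replicate block, 2 transporters were called between untreated compartments on day 8 and 5 on day 91. Slc6a8 was at -0.99 and Slc6a19 at -1.17 on day 8, and on day 91 the 5 lower in crypts were called, while Slc36a4 and Slc1a2 did not pass the filter of that fit.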
